A study of Mus musculus with 2 samples.

Results

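The miR-30 family was examined in microRNA sequencing of the adrenal gland, the paired endocrine organ whose cortex makes steroid hormones and whose medulla releases catecholamines. The family was taken as the 6 annotated miRNA genes Mir30a, Mir30b, Mir30c-1, Mir30c-2, Mir30d and Mir30e, chosen by name, out of 2202 miRNA genes in the tables. All 6 were detected, with at least 10 reads in each library, as were 337 of the 2202 genes. The data came from 2 libraries of adrenal RNA below 30 nucleotides. Both were from female B6CASTF1/J mice, first-generation hybrids of a C57BL/6 and a CAST parent, aged 25 days, and the labels name no treatment or engineered allele. The labels gave 1 group with biological replicates 1 and 2 and no contrast. They numbered the glands as those of different animals but gave both the same donor identifier, and the libraries are called library 1 and library 2 below. Differences between them hold animal, dissection and library preparation together, which cannot be told apart. The exact binomial p-values below set such differences against counting error of the reads alone, and against no spread between animals or libraries.

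A miRNA is cut from a hairpin precursor, and 1 arm of the hairpin usually becomes the mature guide that leads Argonaute to messenger RNAs. Pairing of its seed, bases 2 to 8, with a target largely sets which transcripts are repressed, so miRNAs with the same seed are grouped as a family. The miR-30 family is known for restraining epithelial-to-mesenchymal transition, for lowering the autophagy regulator Beclin 1 and for high expression in kidney, heart and other differentiated tissue. Its genes lie in 3 clusters, Mir30a with Mir30c-2, Mir30d with Mir30b, and Mir30e with Mir30c-1.

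RefSeq entries (GRCm38.p6, the same assembly as mm10) were found for 4 of the 6 genes. Mir30b and Mir30d are described by their counts. The guide strands of the other genes are given here with the seed in capitals, because the shared seed defines the family and the bases after it set which reads can be assigned to which gene.
mmu-miR-30a-5p: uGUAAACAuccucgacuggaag
mmu-miR-30e-5p: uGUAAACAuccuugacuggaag
mmu-miR-30c-5p: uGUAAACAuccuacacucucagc
All of these carry the seed GUAAACA. Of 1738 mature entries in the RefSeq table, 5 had that seed, and the only gene among them outside the family was Mir384, whose mature strand reads as follows.
mmu-miR-384-5p: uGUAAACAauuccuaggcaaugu

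Mir30a and Mir30e differed by 1 of 22 bases in the 5p strand, C13U, and by 1 of 22 in the 3p strand, G18A, with the Mir30a base first and positions counted from 1 at the 5′ end. The 3p strands are printed with the differing base in capitals.
mmu-miR-30a-3p: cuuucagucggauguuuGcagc
mmu-miR-30e-3p: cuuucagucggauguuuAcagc
A single base therefore separates reads of these genes on either arm. The longest stretch shared by the hairpins of Mir30a and Mir30e was 18 bases.

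The 30c genes share their guide strand outright. The mature miR-30c-5p, of 23 bases, occurs in the hairpins of both Mir30c-1 and Mir30c-2, and the longest stretch common to those hairpins, in capitals, was 28 bases.
Mir30c-1: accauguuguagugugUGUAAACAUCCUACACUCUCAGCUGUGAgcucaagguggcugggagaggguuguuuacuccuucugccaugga
Mir30c-2: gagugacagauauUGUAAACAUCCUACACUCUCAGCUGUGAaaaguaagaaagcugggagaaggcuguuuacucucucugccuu
Their 3p strands differed at 3 of 22 bases, G9A, U12C and C22U from Mir30c-1 to Mir30c-2, in capitals here.
mmu-miR-30c-1-3p: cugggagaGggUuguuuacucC
mmu-miR-30c-2-3p: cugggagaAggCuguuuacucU
A read with more than 1 possible place in the genome was assigned to no gene, which excluded 27.5% of all reads from library 2 and 28.4% from library 1. A full-length miR-30c-5p read matches both genes equally, so the counts of Mir30c-1 and Mir30c-2 are uncertain and understate the guide strand. How many such reads there were was not measured.

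In mm10 coordinates, Mir30a (ENSMUSG00000065405.3) is at chr1:23272269-23272339 on the plus strand, within no annotated host gene. Mir30c-2 (ENSMUSG00000065567.1) is at chr1:23291701-23291784 on the same strand, in an exon of the lincRNA gene Gm27028, with 19361 bases between them. Mir30d (ENSMUSG00000065437.1) is at chr15:68341208-68341289 on the minus strand, in an exon of the lincRNA gene Gm20732. Mir30b (ENSMUSG00000065476.2) is at chr15:68337415-68337510, 3697 bases from it, within no annotated host gene. Mir30e (ENSMUSG00000065409.1) at chr4:120772606-120772697 and Mir30c-1 (ENSMUSG00000065490.1) at chr4:120769534-120769622 both lie in introns of Nfyc, on its strand, with 2983 bases between them. Nfyc encodes a subunit of the CCAAT-binding factor NF-Y.

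Library 2 held 11132685 reads, of which 3912280 lay on the strand of a miRNA gene, and library 1 held 7938596 reads, of which 2244073 did. Levels are in CPM, a normalised read count that scales each gene to 1000000 such reads in its library. Intervals are 95% and cover counting error only. They may be too narrow even for that, because PCR copies of a molecule were counted separately. Among markers of cells the gland or its surroundings hold, 7 of 7 chromaffin and neuroendocrine genes were detected, with a summed level of 44125 CPM in library 2 and 42797 CPM in library 1. Mir375 made up most of both sums, with 36561 CPM in library 2 and 37574 CPM in library 1. The rest of the list was higher in library 2, namely Mir7b (5543 against 3921 CPM), Mir137 (794 against 421 CPM), Mir182, Mir7-1, Mir7-2 and Mir153. The endothelial gene Mir126a had 121007 CPM in library 2 and 53762 CPM in library 1. Of 5 smooth muscle and fibroblast genes 4 were detected, and the list summed to 41797 CPM in library 2 and 28927 CPM in library 1. Most of that was Mir143, with 40553 CPM in library 2 and 27293 CPM in library 1. The other detected genes were lower in library 2 than in library 1. Mir214 had 449 against 781 CPM, Mir145a 789 against 847 CPM and Mir199a-2 6.39 against 7.13 CPM. The red blood cell genes, 3 of 3 detected, summed to 25715 CPM in library 2 and 680 CPM in library 1. Mir451a (24242 against 480 CPM) and Mir144 (1451 against 152 CPM) were higher in library 2, and Mir486 (22.0 against 47.7 CPM) was lower. The hepatocyte gene Mir122 had 491 CPM in library 2 and 5185 CPM in library 1. The 4 leukocyte genes, all detected, summed to 913 CPM in library 2 and 1088 CPM in library 1. Mir142 was higher in library 2 (337 against 199 CPM) and Mir155 similar (335 against 341 CPM). Mir150 (215 against 433 CPM) and Mir223 (25.0 against 116 CPM) were lower in library 2. The kidney tubule list, of interest because kidney is rich in miR-30, had 3 of 5 genes detected and summed to 113 CPM in library 2 and 140 CPM in library 1. The 9 striated muscle genes were undetected, with 13 reads in each library and 6 genes at 0, among them Mir1a-1 and Mir133a-1. The Mir1a and Mir133a genes are known as duplicates with the same mature strand, whose reads would be assigned to no gene, so their counts of 0 do not show that muscle was absent. In whole glands, fewer cells of a type and less RNA per cell cannot be told apart.

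The family took 119939 reads in library 2 and 61732 in library 1. These were 3.07% of the miRNA reads in library 2 (95% Wilson interval 3.05 to 3.08%) and 2.75% in library 1 (2.73 to 2.77%). The mean share was 2.91 ± 0.223% (SD, n = 2). Of these assigned reads, Mir30a, Mir30d and Mir30e supplied nearly all, 97.5% in each library. Mir30b and the 30c genes together supplied 2.45% in library 2 and 2.52% in library 1. Full-length miR-30c-5p reads, assigned to no gene, are missing from all of these shares, so the part of the 30c genes is understated by an unmeasured amount.

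Mir30d had 36853 reads (9420 CPM) in library 2 and 22779 reads (10151 CPM) in library 1. Mir30a had 39473 reads (10090 CPM) in library 2 and 21165 reads (9432 CPM) in library 1. Mir30e had 40670 reads (10395 CPM) in library 2 and 16233 reads (7234 CPM) in library 1. All 3 genes thus lay between 7234 and 10395 CPM, with Mir30e in library 1 as the lowest value. Their means were 9785 ± 517 CPM for Mir30d, 9761 ± 465 CPM for Mir30a and 8815 ± 2236 CPM for Mir30e (SD, n = 2 each).

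The order of these 3 genes by CPM was opposite in the libraries. In library 2 Mir30e was highest and Mir30d lowest, and in library 1 Mir30d was highest and Mir30e lowest. The log2 ratio of Mir30d over Mir30e was -0.14 in library 2 (95% interval -0.16 to -0.12) and 0.49 in library 1 (0.46 to 0.52). For Mir30d over Mir30a it was -0.10 in library 2 and 0.11 in library 1, and for Mir30a over Mir30e it was -0.04 in library 2 and 0.38 in library 1. Each interval excluded 0 within its library, but in every one of these pairs the sign turned between libraries, so the 3 genes did not differ beyond the spread between libraries. Per 100 bases of annotated hairpin, Mir30a was highest in both, with 14211 CPM in library 2 and 13284 CPM in library 1. Mir30d had 11488 CPM per 100 bases in library 2 and 12379 in library 1, and Mir30e had 11299 in library 2 and 7863 in library 1. A miRNA read spans a whole mature strand, so a longer hairpin does not by itself yield more reads.

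Mir30b had 1317 reads (337 CPM) in library 2 and 495 reads (221 CPM) in library 1. Mir30c-2 had 906 reads (232 CPM) in library 2 and 609 reads (271 CPM) in library 1. Mir30c-1 had 720 reads (184 CPM) in library 2 and 451 reads (201 CPM) in library 1. By the reads assigned to them, these genes formed a second tier, every value of which lay far below every value of the first. Their means were 279 ± 82.1 CPM for Mir30b, 251 ± 28.1 CPM for Mir30c-2 and 193 ± 11.98 CPM for Mir30c-1 (SD, n = 2 each). Mir30b was above Mir30c-2 in library 2 and below it in library 1, with log2 ratios of 0.54 and -0.30, so their order was not stable. Mir30c-2 was above Mir30c-1 in both, by a log2 ratio of 0.33 in library 2 (0.19 to 0.47) and 0.43 in library 1 (0.26 to 0.61). Per 100 bases of hairpin, Mir30c-2 remained above Mir30c-1, with 276 against 207 CPM in library 2 and 323 against 226 CPM in library 1. Since the guide strand of these genes is shared, this ratio concerns only the reads that could be placed at 1 of them. The low place of Mir30c-1 and Mir30c-2 rests on such reads too. How far the unassigned reads would raise these genes was not measured.

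**Figure D1:**
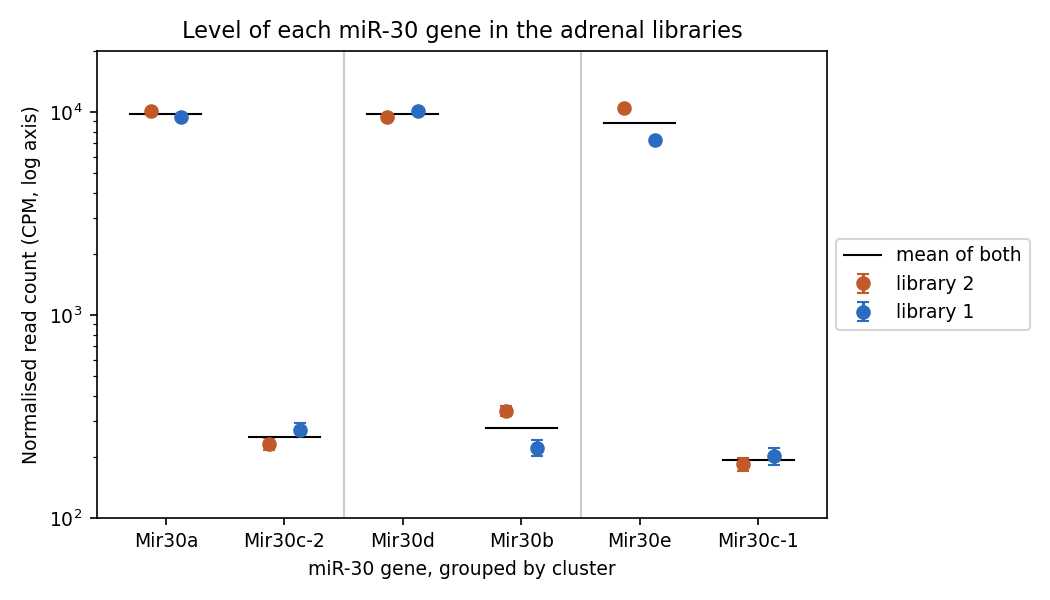
Normalised read count (CPM, log axis) of each miR-30 gene in library 2 and library 1. Points are libraries, bars are exact Poisson 95% intervals (counting error only) and black lines are means of both libraries. Mir30a, Mir30d and Mir30e lie between 7234 and 10395 CPM and Mir30b, Mir30c-1 and Mir30c-2 between 184 and 337 CPM. The values of Mir30c-1 and Mir30c-2 leave out full-length reads of their shared guide strand.

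By rank of CPM among the 2202 genes, Mir30e was 22nd in library 2 and 26th in library 1, Mir30a 23rd and 22nd, and Mir30d 26th and 20th. Mir30b was 120th in library 2 and 155th in library 1, Mir30c-2 144th and 137th, and Mir30c-1 156th and 159th. The 2 other detected genes closest to each member in log2 CPM over both libraries were found by Euclidean distance among the 337. For Mir30a and Mir30d these were Mir652 (distances 0.10 and 0.07) and Mir335 (0.47 and 0.57). Mir335 lies in the imprinted gene Mest. For Mir30e they were Mir335 (0.13) and Mir411 (0.21) of the imprinted Dlk1-Dio3 locus. Mir30b was closest to Mir467e (0.11) and to the leukocyte gene Mir142 (0.15). Mir30c-2 was closest to Mir188 (0.02) and Mir338 (0.08), and Mir30c-1 to Mir193b (0.05) and Mir3102 (0.08). With 2 libraries, such closeness describes level alone.

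Each of the 3 clusters took between 27.0 and 37.7% of the family reads in either library. The Mir30a/Mir30c-2 cluster held 33.7% in library 2 (Wilson interval 33.4 to 33.9%) and 35.3% in library 1 (34.9 to 35.6%). The Mir30b/Mir30d cluster held 31.8% in library 2 (31.6 to 32.1%) and 37.7% in library 1 (37.3 to 38.1%). The Mir30e/Mir30c-1 cluster held 34.5% in library 2 (34.2 to 34.8%) and 27.0% in library 1 (26.7 to 27.4%). The first of these varied least between the libraries. The mean shares were 34.5 ± 1.14% for Mir30a/Mir30c-2, 34.8 ± 4.16% for Mir30b/Mir30d and 30.8 ± 5.29% for Mir30e/Mir30c-1 (SD, n = 2 each). The Mir30e/Mir30c-1 mean lay below the others by less than its own SD, and no test over the 2 libraries was run.

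**Figure D2:**
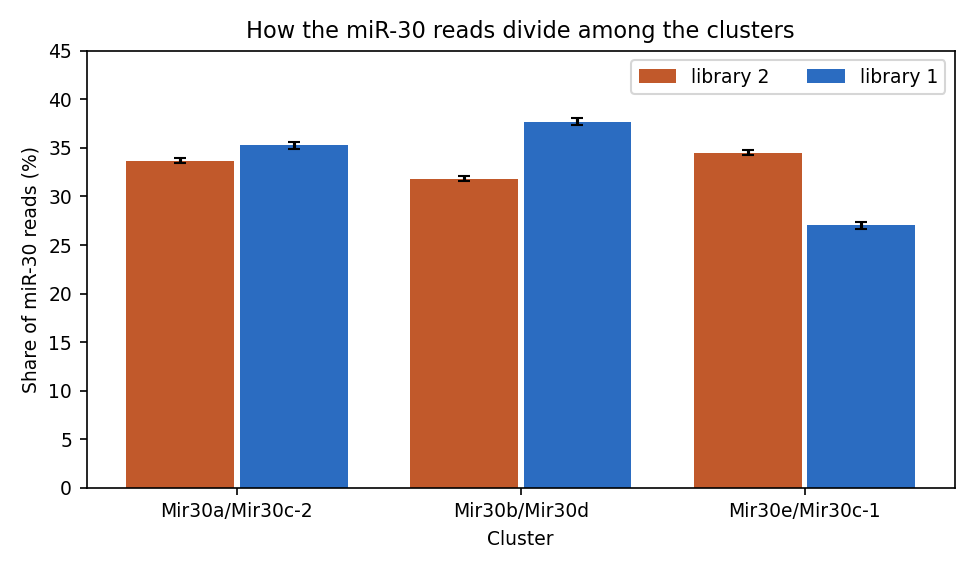
Share of the miR-30 reads (%) held by each cluster in library 2 and library 1, with 95% Wilson intervals for counting error only. The Mir30e/Mir30c-1 share is 34.5% in library 2 and 27.0% in library 1, and the Mir30b/Mir30d share is 31.8% and 37.7%.

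Within every cluster 1 gene supplied almost all assigned reads. Mir30a had 43.5 times the reads of Mir30c-2 in library 2 (40.8 to 46.5) and 34.7 times in library 1 (32.0 to 37.6). Mir30d had 28.0 times the reads of Mir30b in library 2 (26.5 to 29.6) and 46.0 times in library 1 (42.1 to 50.3). Mir30e had 56.4 times the reads of Mir30c-1 in library 2 (52.4 to 60.8) and 36.0 times in library 1 (32.7 to 39.5). Per base of annotated hairpin the ratios were 51.5 and 41.1 for the Mir30a pair, 32.7 and 53.8 for the Mir30d pair, and 54.6 and 34.8 for the Mir30e pair, in library 2 and library 1. Taking the libraries together, the mean log2 ratios were 5.28 ± 0.23 for Mir30a over Mir30c-2, 5.16 ± 0.51 for Mir30d over Mir30b and 5.49 ± 0.46 for Mir30e over Mir30c-1 (SD, n = 2 each). These 3 means differed by less than the larger SDs. The ratios over a 30c gene leave out the unmeasured reads of the shared strand and would be lower with them.

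The within-cluster ratios moved between the libraries, and in different directions. On the log2 scale the difference, library 2 minus library 1, was 0.33 for Mir30a over Mir30c-2 (95% interval 0.18 to 0.48) and 0.65 for Mir30e over Mir30c-1 (0.48 to 0.82). For Mir30d over Mir30b it was -0.72 (-0.87 to -0.57). These intervals hold counting error of the reads of these 2 libraries and no spread among animals. Set beside 629 other pairs of detected miRNA genes on the same strand with at most 25 kb between them, the 3 pairs had large differences in assigned reads. The median of the other pairs was 2.19 on the log2 CPM scale, averaged over the libraries without sign, against 5.17 to 5.49 for the miR-30 pairs. Of the other pairs, 97 (15.4%) reached the smallest miR-30 value, that of Mir30d over Mir30b. The larger miR-30 values are over Mir30c-1 or Mir30c-2 and leave out the unassigned reads of their shared strand. With those reads they would be lower by an unmeasured amount, so their place among the other pairs is uncertain. Pairs in 1 locus share genes, so this is a description.

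**Figure D3:**
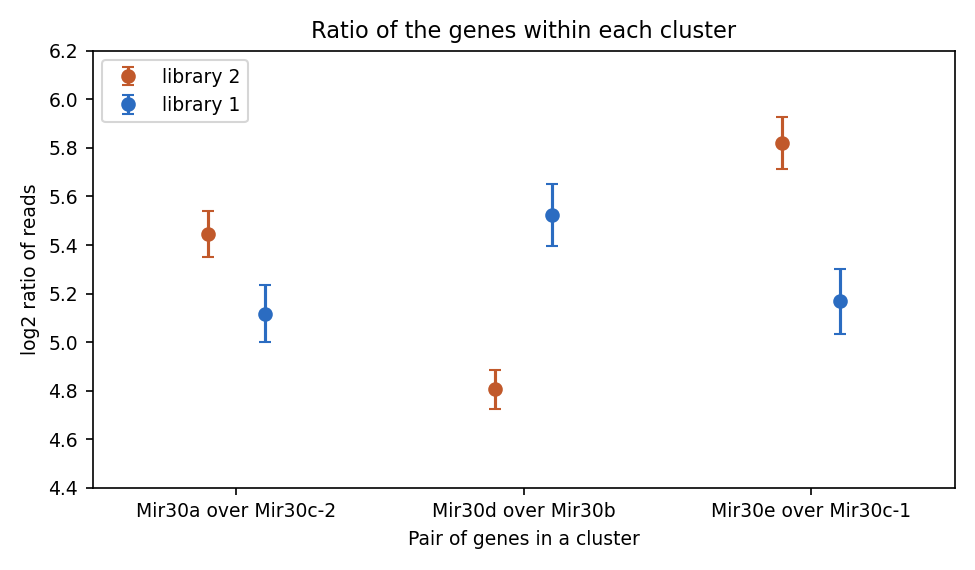
Log2 ratio of reads of the 2 genes of each cluster in library 2 and library 1, with 95% intervals for counting error only. The Mir30d over Mir30b ratio is 4.81 in library 2 and 5.52 in library 1, while the ratios of the other clusters are higher in library 2. Ratios over Mir30c-1 and Mir30c-2 leave out full-length reads of their shared guide strand.

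Each gene was then compared between the libraries with a two-sided exact binomial test on its reads, with Benjamini-Hochberg adjustment over all 411 genes with at least 10 reads summed. This compares these libraries, not conditions. Log2 ratios are library 2 over library 1 after TMM scaling. A gene was called at an adjusted p under 0.05 with a fold of 1.5 or more. Of the 6 miR-30 genes, 2 were called, against 31.4% of all genes tested, a share near this background. Both were higher in library 2, and 15.1% of all genes tested were called and higher in library 2. Of the called genes, 62 (48.1%) were higher in library 2, a split that was 38.5% when only library size was used for scaling and 66.4% with no filter on low counts.

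Mir30b was higher in library 2, with 337 against 221 CPM and a log2 ratio of 0.69 (95% interval 0.55 to 0.84, adjusted exact binomial p = 1.71e-20). Mir30e was higher in library 2, with 10395 against 7234 CPM and a log2 ratio of 0.61 (0.58 to 0.64), at an adjusted exact binomial p below the smallest number that could be computed. With library size alone the log2 ratio of Mir30e was 0.52, short of 1.5-fold. Mir30a had a log2 ratio of 0.18 (0.16 to 0.21) and passed the adjusted p alone (exact binomial, 4.43e-50) at 1.14-fold. The adjusted p alone was passed by 3 of the 6 genes and by 58.4% of all tested.

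The remaining members did not pass. Mir30d had a log2 ratio of -0.02 (-0.05 to 0.00, adjusted exact binomial p = 0.116), Mir30c-1 of -0.04 (-0.21 to 0.13, adjusted exact binomial p = 0.746) and Mir30c-2 of -0.14 (-0.29 to 0.00, adjusted exact binomial p = 0.0975). The signs of all of these turned with no filter on low counts, and those of Mir30d and Mir30c-1 also with DESeq2 size factors and with 100 or more reads needed in each library. The median log2 ratio of the 6 genes was 0.08, and that of all 411 tested genes was -0.07. Without sign, the median was 0.16 for the 6 genes and 0.50 for all tested. The cluster sums gave log2 ratios of 0.59 for Mir30e/Mir30c-1, 0.18 for Mir30a/Mir30c-2 and 0.00 for Mir30b/Mir30d.

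The binomial test takes no variation beyond counting into account. Over the tested genes, edgeR estimated a biological coefficient of variation of 0.387. With that common dispersion in edgeR's exact test, 0 of the 6 genes and 5 of 411 passed. At an unadjusted p under 0.05 the numbers were 0 of the 6 and 12 of 411, and the smallest unadjusted exact p of a miR-30 gene was 0.393. That dispersion came from the differences between the same 2 libraries, so few calls could pass in this test. Whether Mir30b and Mir30e differ beyond the spread between animals was not tested. The red blood cell, endothelial and hepatocyte markers differed between the same libraries by the values given above, and their part in the miR-30 differences was not tested.

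**Figure D4:**
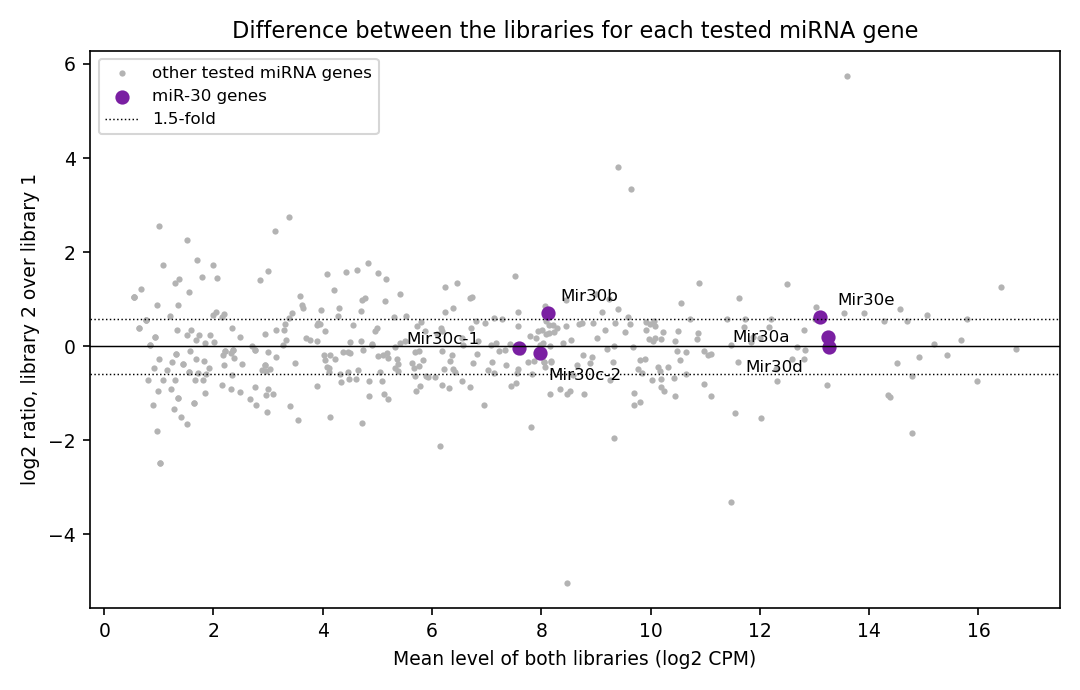
Log2 ratio of library 2 over library 1 against the mean level (log2 CPM) for the 411 tested genes, with the miR-30 genes in purple and dotted lines at 1.5-fold. Mir30b (0.69) and Mir30e (0.61) lie just above the upper line and the other 4 members lie between the lines.

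Counting without strand removed Mir30e. It overlaps Mir30f, annotated on the opposite strand of the same bases, and the unstranded count of Mir30e was 0 in both libraries. Its 40670 and 16233 reads equal 4.88% and 5.33% of the reads set aside as ambiguous in library 2 and library 1. The same reads appear as reads opposite to Mir30f. On its own strand Mir30f had 0 reads in both libraries. Taking 3 reads as the limit that a count of 0 allows, this is up to 0.767 CPM in library 2 and 1.34 CPM in library 1, and the upper ends of the exact Poisson 95% intervals were 0.943 CPM and 1.64 CPM. The other 5 members had identical stranded and unstranded counts, and no member had a read on its opposite strand. The mature Mir30f entry carries the bases of the family seed displaced by 1 position.
mmu-miR-30f: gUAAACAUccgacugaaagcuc
Its capitals mark bases 2 to 8, which read UAAACAU and are not the family seed.

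Mir384 on chromosome X, the other gene with the GUAAACA seed, had 99 reads (25.3 CPM, exact Poisson interval 20.6 to 30.8) in library 2 and 26 reads (11.6 CPM, 7.57 to 16.98) in library 1. It was detected in both at a level below every miR-30 gene. It was higher in library 2 by a log2 ratio of 1.19 (0.57 to 1.81, adjusted exact binomial p = 1.41e-04). Its guide strand shares the first 8 bases with miR-30a-5p, against 12 for miR-30c-5p.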

How the data were processed

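Each library had 1 deposited table, without header, of raw read counts per miRNA gene (GENCODE M21, mm10, per the labels and the text deposited with it). Aligner, counter and trimming: not given in the sources used here. Of the 3 count columns, the first was taken as unstranded and the second, with nearly all reads in genes, as the strand of the gene, a reading inferred from the layout. All 2202 identifiers were found in GENCODE M21. Summary rows without a gene entered no library size or test. They held unmapped reads (27.8% of library 2, 33.8% of library 1), reads with several places in the genome (27.5%, 28.4%) and reads outside miRNA genes (9.53%, 9.57%). Unstranded ambiguous reads were 7.49% and 3.84%.

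The library size for CPM was the sum of the stranded gene counts. A quasi-likelihood test had no contrast to fit in 1 group, so genes with 10 or more reads summed were compared by exact binomial test with edgeR TMM library sizes. Log2 ratios had 0.5 read added to each count. The test was checked on data simulated with counting error alone, so that check does not cover spread between libraries. Python 3.11.15, scipy 1.17.1, R 4.3.3, edgeR 4.0.16 and DESeq2 1.42.0 were used. The members, lists and named genes were chosen with earlier results of these data known. Named are the members, genes with their seed, overlapping miRNA genes and, for each member, the 2 detected genes closest in level. Reads with CAST variants may map less well to the reference, which was not measured.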

Additional observations from a re-analysis of the deposited data

How the results depend on the processing

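The library 2 over library 1 ratios of the members near 0 turned sign with scaling. Mir30d had log2 ratios of 0.042 with DESeq2 size factors, 0.14 with no filter on low counts and 0.060 when each library had to hold 100 or more reads. Mir30c-1 had 0.022, 0.12 and 0.040 under the same settings, and Mir30c-2 had 0.023 with no filter. Leaving out the filter shifted the ratios of all genes by a median of 0.17. The number of miR-30 genes called, 2, became 1 with library size alone (Mir30b), 1 in the unstranded column, where Mir30e is at 0, and 0 in edgeR's exact test with common dispersion. The number of all genes called, 129, became 82 with 100 or more reads required, where fewer genes were tested, and 5 in edgeR's exact test. In the unstranded column the family share was 2.46% of the miRNA reads, and the cluster shares were 49.4% for Mir30a/Mir30c-2, 49.7% for Mir30b/Mir30d and 0.95% for Mir30e/Mir30c-1, since the reads of Mir30e are missing there. Against all mapped reads the family share was 1.33%, by the larger denominator. The unstranded ratio of Mir30e over Mir30c-1 gave no value. Leaving out each replicate gave family shares of 2.75 to 3.07%. With these included, 32 alternative values of the shares, within-cluster ratios and counts of calls stayed close to the main ones. Close meant a move of less than 1 SD between libraries or, for counts, of at most 1.5 times. With 2 libraries, leaving out either always moves a mean by less than 1 SD. The values without a replicate therefore could not fall outside this limit and do not show stability. No paired analysis was possible because both libraries belong to the same group. Depth weighs most on Mir30b, Mir30c-1, Mir30c-2 and Mir384, which had fewer reads than the other members. Counts of Mir30c-1 and Mir30c-2 are also limited, whatever the depth, by the unassigned reads of their shared strand.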
